A study of Mus musculus with 4 samples.

Results

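Complement is a cascade of serum proteins and cell receptors. It is described here through 9 genes of 31053 in the deposited count table, listed by symbol: C1qa, C1qb and C1qc, C2, C3, Cfb, Cfp, C3ar1 and C5ar1. The list was chosen with earlier results of these data known. All 9 were found in the table, each under 1 identifier, and the questions put to the data were which tumour cells carried transcripts of each component and which carried those of the anaphylatoxin receptors. The cells came from colon polyps of female C57BL/6 mice. Tumours were started with 12.5 mg/kg of the mutagen azoxymethane and driven by colitis from 3 rounds of dextran sulphate sodium, dosed at 2.5% and in the final round at 2%, and tissue was collected 30 days later. There is 1 sample for each of 4 groups: CD45+ immune and CD45- non-immune cells from Egfr fl/fl control mice, and the same sorts from EgfrΔMYL mice, in which the epidermal growth factor receptor is deleted in the myeloid lineage. The Cre driver, the number of mice behind each sample and their age are not given in the sources used here.

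Complement can be started along several routes. In the classical route the C1q molecule, built from A, B and C chains, binds antibody or dying cells, and the proteases that travel with it cut C4 and C2. In the alternative route factor B (Cfb) joins deposited C3 and is itself cut, and properdin (Cfp) holds that enzyme together. All routes cut C3, which coats targets and releases the peptide C3a, and go on to release C5a. C3ar1 and C5ar1 encode the receptors of these peptides and are known from myeloid cells. C1q is best known as a product of tissue macrophages, whereas much of the C3, C2 and factor B of blood plasma comes from the liver.

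The data were counts of UMIs, tags that mark single mRNA molecules near their 3′ end, in 1 table of 18026 barcodes from 4 barcode suffixes, here libraries 1 to 4. No source used here pairs a suffix with a sample, and the labels describe both sorts as pooled for capture while each sample has its own index, so libraries stayed unassigned, genotypes and sorts were not compared, and there were no replicates and no p-values. The libraries held between 9246770 and 65481274 UMIs, and 594, 1706, 4516 and 7382 cells passed the filter. Libraries 1 and 2 stood apart, with 59.0% and 56.3% of barcodes removed against 8.75% and 4.45% in libraries 3 and 4. Haemoglobin took 8.90% of the UMIs kept in library 1 and at most 0.981% in the others. Between any pair of libraries at most 9 barcode names were shared. A gate on fixed marker genes placed 11247 of the 14198 cells (79.2%) in classes, of which 15 had at least 50 cells. Each class is named for the gate and written "-like", and in these 15 every marker of the class's own list was seen in at least 10% of its cells. The gate asks for these markers, so their presence is no separate support for the names. Macrophage-like cells numbered 2, 6, 397 and 982 in libraries 1 to 4, monocyte-like 4, 4, 101 and 362, neutrophil-like 70, 224, 512 and 1799, and epithelial-like 316, 1051, 15 and 41. Basophil-like cells numbered 19, 27, 7 and 4. Class and library therefore could not be told apart for macrophage-like against epithelial-like cells, nor for the most part against basophil-like cells. Egfr itself had 1 UMI in macrophage-like and 4 in neutrophil-like cells, too few to check a label by.

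Levels are given in CPM, the UMIs of a gene per 1000000 UMIs of the class, with exact 95% Poisson intervals that cover counting error only. In pooled counts, fewer molecules per cell and fewer cells with the transcript cannot be told apart. A gene was called led by a class when its level there was at least 2-fold that of the next class and rested on at least 10 UMIs. By this rule 5 of the 9 genes were led: C1qa, C1qb and C1qc by macrophage-like cells, C5ar1 by neutrophil-like cells and C2 by epithelial-like cells. Among all 13868 genes with enough UMIs, 34.2% were led by some class, 1.77% by macrophage-like, 2.09% by neutrophil-like and 16.9% by epithelial-like cells. The median log2 ratio of the highest to the next class, after adding 1 CPM, was 1.06 over the 9 genes and 0.50 over all. The 4 genes not led, C3, Cfb, Cfp and C3ar1, each had a next class within 2-fold of the highest.

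**Figure D1:**
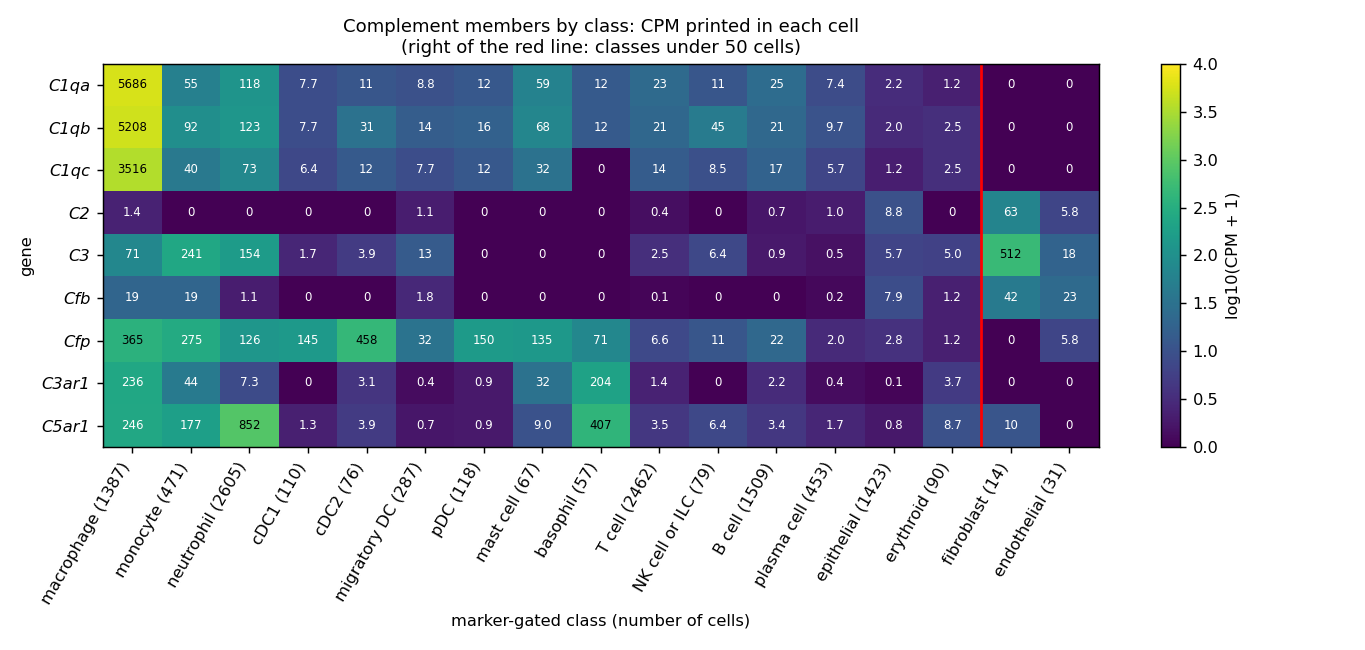
Level of each complement gene (rows) in each marker-gated class (columns, number of cells in brackets). Colour shows log10(CPM + 1), the printed figure is the CPM, and classes right of the red line had under 50 cells. The C1q chains stand out in macrophage-like cells (5686, 5208 and 3516 CPM), and C5ar1 in neutrophil-like cells (852 CPM).

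The C1q chain genes lie side by side, and the upstream sequences of those with an entry are shown because these genes moved together across the classes, with C3 and C3ar1 as genes of other patterns. C1qb (chr4:136880129-136886187), C1qc (chr4:136889804-136893065) and C1qa (chr4:136895917-136898803) span 18675 bases of mouse chromosome 4 on the reverse strand (GRCm38). RefSeq promoter windows were matched for 6 of the 9 genes. C1qa, C2 and Cfb had no entry. Each run is read 5′ to 3′ on the reverse strand of GRCm38.p6 and ends at or before the gene's start. The capitals mark matches, on either strand, to GAGGAA (a core bound by PU.1 and other ETS factors of myeloid cells), TGCTGA (a core of MAF sites), TTGCNNAA (C/EBP) and TGANTCA (AP-1).
C1qb, chr4:136886201-136886450: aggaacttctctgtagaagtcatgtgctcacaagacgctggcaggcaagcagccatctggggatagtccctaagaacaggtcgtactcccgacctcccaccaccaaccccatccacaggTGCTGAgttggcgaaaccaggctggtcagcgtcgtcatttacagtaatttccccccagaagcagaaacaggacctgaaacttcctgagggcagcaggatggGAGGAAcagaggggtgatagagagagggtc
C1qc, chr4:136893066-136893164: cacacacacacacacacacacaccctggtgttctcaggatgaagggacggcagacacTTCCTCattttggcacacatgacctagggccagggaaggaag
C3, chr17:57228137-57228386: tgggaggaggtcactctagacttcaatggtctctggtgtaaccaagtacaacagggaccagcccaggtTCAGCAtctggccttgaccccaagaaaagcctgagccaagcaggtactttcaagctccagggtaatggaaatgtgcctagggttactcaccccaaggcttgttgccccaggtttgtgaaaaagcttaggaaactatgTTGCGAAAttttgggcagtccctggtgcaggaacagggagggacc
C3ar1, chr6:122856162-122856407: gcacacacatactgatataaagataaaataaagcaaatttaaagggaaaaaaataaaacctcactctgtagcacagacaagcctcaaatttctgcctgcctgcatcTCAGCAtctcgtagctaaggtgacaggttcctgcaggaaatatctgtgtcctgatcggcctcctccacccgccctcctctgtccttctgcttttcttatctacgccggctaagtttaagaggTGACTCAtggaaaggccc
C1qb held GAGGAA 30 bases before its RefSeq start, and C1qc held it on the other strand (TTCCTC) 193 bases before. GAGGAA occurred in 23.3% of the 32851 RefSeq windows of 250 bases, so its presence in both is a description only. C3 held the C/EBP pattern as TTGCGAAA 45 bases before its start, a pattern in 9.56% of windows, and C3ar1 held the AP-1 pattern as TGACTCA 22 bases before, found in 6.75%. TGCTGA or its reverse complement TCAGCA, in 16.1% of windows, was found in C1qb, C3, C3ar1 and C5ar1. The C5ar1 match, 17 bases before its RefSeq start, lies inside the GENCODE vM21 gene. None of the motifs was found in the window of Cfp, and no motif overlapped another. The C1qc and C3ar1 runs are cut where the GENCODE vM21 gene begins, and the C5ar1 window is not printed because 202 of its 250 bases lie inside that gene.

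C1qa, C1qb and C1qc, which encode the A, B and C chains of C1q, were abundant in macrophage-like cells and low in every other class. The 2951 cells that entered no class had 1547 CPM of C1qa, 1450 of C1qb and 958 of C1qc. They also had 87.0 CPM of C3 and 238 CPM of Cfp, so the classes do not account for all cells with these transcripts. C1qa reached 5686 CPM in macrophage-like cells (5653 to 5719), against 118 CPM (111 to 125) in neutrophil-like cells, the next class. This gave a ratio of 48.2 (45.3 to 51.2). The ratio over the next class was 42.3 (39.8 to 44.9) for C1qb and 48.2 (44.7 to 52.1) for C1qc. Of C1qa, library 3 had 6207 CPM and library 4 had 5440 CPM in macrophage-like cells. Library 3 was also the higher one for C1qb (5633 and 5005 CPM) and C1qc (3803 and 3381 CPM). The difference between these libraries exceeded counting error for each chain, but was small beside the gap to any other class. Monocyte-like cells, whose marker list includes Ly6c2 and Ccr2, had 55.1 CPM of C1qa, 92.2 of C1qb and 39.7 of C1qc, so macrophage-like cells were 103-fold (91.9 to 116), 56.5-fold and 88.5-fold higher. Epithelial-like cells had 2.23 CPM of C1qa, a pooled value set by the libraries that held them: 0.212 and 1.39 CPM in libraries 1 and 2, 126 CPM (6 UMIs) in library 3 and 39.1 CPM (14 UMIs) in library 4. The 14 fibroblast-like and 31 endothelial-like cells had 0 UMIs of any chain, which allows up to 31.3 and 17.5 CPM.

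Most macrophage-like cells carried all of the chains. After each cell was thinned to 1000 UMIs, which sets aside differences in depth, all 3 chains were seen in 1118 of 1372 macrophage-like cells, or 81.5% (exact binomial interval 79.3 to 83.5), and none in 4.15%. Without thinning the share with all 3 was 91.9% at a median depth of 13323 UMIs. In library 3 the thinned share was 83.5% and in library 4 it was 80.8%. Of 470 monocyte-like cells 1.06% had all 3 chains and 90.9% had none, and of 2445 T cell-like cells, which serve as the background, 0 had all 3 (allowing a share of up to 0.123%) and 94.4% had none. Among macrophage-like cells the level of C1qa had a median of 5475 CPM per cell, with 10% of cells below 1152 CPM and 10% above 8910 CPM. Spearman's rho between pairs of chains over thinned macrophage-like cells lay between 0.50 and 0.54 in libraries 3 (389 cells) and 4 (977 cells). C1qa and Apoe, a lipid carrier gene that is one of the gate's own markers, gave 0.55 and 0.48 there, whereas C1qa and C3 gave -0.10 and -0.07. All of these pairs share each cell's fixed total.

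**Figure D2:**
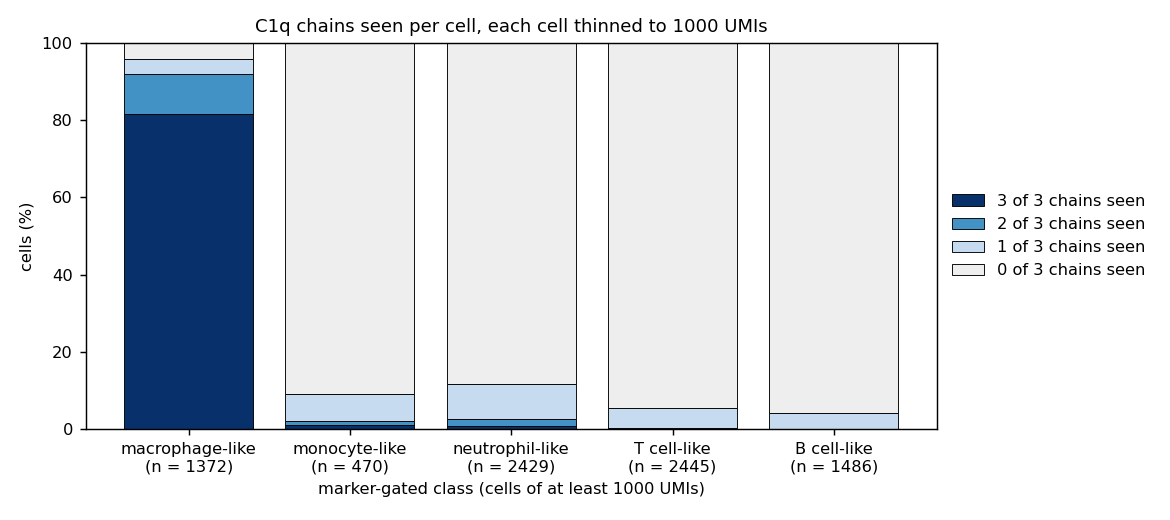
Share of cells in 5 classes (bars, percent of cells) in which 3, 2, 1 or 0 of the C1q chains were seen after every cell was thinned to 1000 UMIs. All 3 chains were seen in 81.5% of macrophage-like cells, and none in 90.9% of monocyte-like and 88.3% of neutrophil-like cells.

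C1q in neutrophil-like cells followed the library too. C1qa had 0 UMIs in the 70 neutrophil-like cells of library 1 (allowing up to 10.1 CPM), 1 UMI in the 224 of library 2, 73.3 CPM (62.5 to 85.5) in the 512 of library 3 and 146 CPM (136 to 155) in the 1799 of library 4. C1qb and C1qc likewise had 0 UMIs in the neutrophil-like cells of libraries 1 and 2, which held 2 and 6 macrophage-like cells against 397 and 982 in libraries 3 and 4. Over all libraries the neutrophil-like level was 2.08%, 2.37% and 2.07% of the macrophage-like level for the A, B and C chain genes. These levels rest on few cells: the 10% of cells with the most C1qa held 93.2% of its UMIs in neutrophil-like cells. In monocyte-like cells that share was 93.1%. Macrophage markers stood at like shares: Apoe 2.40%, Ms4a7 2.81%, Mrc1 3.24% and Trem2 2.07%, while Cd68 stood at 24.5% and Csf1r at 7.98%. In T cell-like cells the chains were at 0.403%, 0.401% and 0.394% of the macrophage-like level, and Apoe at 0.458%. The chains' shares of their summed UMIs were 39.5% A, 36.1% B and 24.4% C in macrophage-like cells, 37.6%, 39.2% and 23.2% in neutrophil-like cells and 39.8%, 36.2% and 24.0% in T cell-like cells. B cell-like cells had 39.4%, 33.6% and 27.0%. The B chain took a larger share in monocyte-like cells, with 29.5%, 49.3% and 21.2% of 984 UMIs, and in plasma cell-like cells, with 32.3%, 42.5% and 25.2% of 325 UMIs. Whether free RNA or macrophage doublets gave the UMIs outside macrophage-like cells was not tested. The log2 ratio of C1qa in macrophage-like over neutrophil-like cells was 5.58, and became 6.73 without library 4, 6.26 with the highest doublet scores removed and 4.23 when barcodes with markers of several classes were kept. With Leiden clusters in place of gates it was 6.12.

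C3, the component on which all routes converge, was highest in monocyte-like and neutrophil-like cells and not in macrophage-like cells. Its level was 241 CPM (228 to 255) in monocyte-like, 154 CPM (146 to 162) in neutrophil-like and 70.6 CPM (67.0 to 74.4) in macrophage-like cells. It was at most 13.3 CPM in the other 12 classes. Monocyte-like cells had 221 CPM in library 3 and 250 in library 4. Macrophage-like cells had 93.0 and 59.9 CPM, so the groups did not overlap, and the monocyte-like level was 3.42-fold (3.17 to 3.69) the macrophage-like one in the pooled table. Neutrophil-like cells had 77.5, 132, 169 and 154 CPM in libraries 1 to 4, and library 1, at 49.1 to 116, lay lowest. C3 was seen in neutrophil-like cells of libraries 1 and 2, which held hardly any macrophage-like or monocyte-like cells. Those libraries held all of the fibroblast-like cells, a class with 512 CPM of C3. Whether free RNA or doublets gave C3 UMIs to neutrophil-like cells was not tested. Monocyte markers summed to 553 CPM in neutrophil-like cells against 8218 CPM in monocyte-like cells, a gap that the gate partly sets. A C3 UMI was found in 24.5% of thinned monocyte-like cells, 13.3% of neutrophil-like and 6.20% of macrophage-like cells, against 0.204% of T cell-like cells. The ratio of monocyte-like to neutrophil-like cells was 1.57 (1.45 to 1.69), below the 2-fold lead, and on the log2 scale it went from 0.64 to 0.16 when Leiden clusters replaced the gates. Fibroblast-like cells, of which there were 14, had 512 CPM of C3 (378 to 676) from 49 UMIs, above every compared class but too few cells to enter the rule.

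Cfb, the protease of the alternative route, was low and shared between monocyte-like cells (19.4 CPM, 15.8 to 23.5) and macrophage-like cells (19.3 CPM, 17.4 to 21.3), which differed by less than counting error. Epithelial-like cells came next with 7.88 CPM (6.59 to 9.35). Neutrophil-like cells had 1.11 CPM from 10 UMIs, 17.4-fold (9.38 to 36.7) below macrophage-like cells, although their C3 was higher. Library 3 had the higher Cfb in monocyte-like (27.7 against 16.8 CPM) and macrophage-like cells (26.4 against 15.8 CPM) alike. A Cfb UMI was seen in 16.8% of macrophage-like cells, and in 1.82% of them after thinning. The log2 ratio of macrophage-like over epithelial-like cells was 1.19, and 0.35 over cells thinned to 1000 UMIs.

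C2, which supplies the protease of the classical C3-cutting enzyme, was rare. Epithelial-like cells led it with 8.78 CPM (7.42 to 10.3) from 146 UMIs, 6.15-fold (4.11 to 9.51) above macrophage-like cells with 1.43 CPM. Monocyte-like and neutrophil-like cells had 0 UMIs, which allows up to 0.570 and 0.332 CPM. In epithelial-like cells the level was 8.28 CPM in library 1 and 8.95 in library 2, within counting error of each other. The 14 fibroblast-like cells had 62.6 CPM (23.0 to 136) from 6 UMIs, so the epithelial-like lead is lost when classes under 50 cells are let in. C2 and Cfb lie 85 bases apart on chromosome 17 (chr17:34862604-34898265 and chr17:34856374-34862518, GRCm38, reverse strand). The annotated gene Gm20547 overlaps 42.8% of the exonic bases of C2 and 79.5% of those of Cfb on the same strand, and it had 0 UMIs in every class. Reads that fit several genes may not have been counted, so the levels of C2 and Cfb are uncertain.

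Within epithelial-like cells the levels of these components varied with marker state and with library. Cfb was 18.1 CPM (10.3 to 29.4, from 16 UMIs) in the 79 cells with goblet or secretory markers, 11.9 CPM (8.59 to 16.0) in the 230 with regenerative markers, 4.01 CPM (2.64 to 5.83) in the 429 with Wnt-active markers and 8.44 CPM in the 676 of no state. Library 2 gave 27.8, 10.3 and 3.61 CPM for the named states, whereas library 1 gave 7.41, 13.5 and 6.21 CPM with intervals that overlapped. C2 was 13.8 CPM (10.2 to 18.2) in regenerative, 6.97 CPM (5.12 to 9.27) in Wnt-active, 5.66 CPM (1.84 to 13.2) in goblet and 8.25 CPM in stateless cells. The regenerative level rested on library 2 (18.4 CPM), since in library 1 it was 8.61 CPM (4.92 to 14.0) beside 7.09 CPM (3.06 to 14.0) in Wnt-active cells. C3 was 6.90 CPM in regenerative, 3.41 in Wnt-active and 8.44 in stateless cells, with 1 UMI in goblet cells. In library 1 its levels in the named states lay between 2.15 and 2.66 CPM, and in library 2 the regenerative level was 12.1 CPM. For each of these components the full order of the named states differed between the libraries.

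Cfp, which encodes properdin, was spread over nearly all myeloid and dendritic classes, and among the dendritic ones was lowest in migratory DC-like cells. cDC2-like cells, conventional dendritic cells of the CD209a and CLEC10A kind, had 458 CPM (421 to 496), macrophage-like 365 CPM (357 to 373) and monocyte-like 275 CPM (261 to 290), and each step in this order exceeded counting error. Plasmacytoid DC-like, cDC1-like, mast cell-like and neutrophil-like cells followed at 150, 145, 135 and 126 CPM, neighbours that did not differ beyond it. The cDC2-like level was 495 CPM in library 3 and 433 in library 4, and the macrophage-like level 424 and 337. Neutrophil-like cells had 152, 144, 129 and 123 CPM in libraries 1 to 4, with intervals that overlapped. Basophil-like cells had 70.6 CPM, migratory DC-like cells 32.4, B cell-like cells 21.5 and epithelial-like cells 2.77. A Cfp UMI was seen in 35.5% of 76 thinned cDC2-like cells, 27.2% of macrophage-like, 11.5% of neutrophil-like and 0.491% of T cell-like cells. Without thinning it was seen in all 76 cDC2-like cells. Cfp lies on the X chromosome (X, 20925454 to 20931555).

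C3ar1, the receptor of C3a, was high in macrophage-like and basophil-like cells. The levels were 236 CPM in macrophage-like cells, 204 CPM in the 57 basophil-like cells (from 49 UMIs), 44.1 in monocyte-like, 31.6 in mast cell-like and 7.30 in neutrophil-like cells. The first pair, whose cells came mostly from different libraries, differed by less than counting error (ratio 1.16, 0.876 to 1.57). Macrophage-like cells were 5.36-fold (4.70 to 6.14) above monocyte-like cells. Macrophage-like cells had 248 CPM in library 3 and 231 in library 4. Monocyte-like cells had 36.9 and 46.2 CPM there, and the classes did not overlap. Basophil-like cells had 188 CPM in library 1 (19 cells) and 174 in library 2 (27 cells), libraries nearly without macrophage-like cells. Their macrophage markers summed to 116 CPM, with 2 of 8 seen, against 28832 CPM in macrophage-like cells. The gate itself limits markers of other lists, so this low sum is partly set by the choice of cells. Whether free RNA or doublets gave C3ar1 UMIs to basophil-like cells was not tested. After thinning, a C3ar1 UMI was seen in 23.0% of macrophage-like, 21.4% of basophil-like, 3.62% of monocyte-like, 0.453% of neutrophil-like and 0.164% of T cell-like cells. Neutrophil-like C3ar1 stood at 3.09% of the macrophage-like level, beside 2.08% for C1qa, and had 0 UMIs in libraries 1 and 2.

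C5ar1, the receptor of C5a, was highest in neutrophil-like cells and reached all of the classes rich in C3ar1 too. Neutrophil-like cells had 852 CPM, basophil-like cells 407, macrophage-like cells 246 and monocyte-like cells 177, and every step exceeded counting error. Most basophil-like cells came from other libraries than the macrophage-like cells, so class and library are mixed in that step. No other class of at least 50 cells passed 9.03 CPM. In neutrophil-like cells the level was 1313, 822, 877 and 823 CPM in libraries 1 to 4, so library 1 was high and the others lay close together. Macrophage-like cells had 268 and 235 CPM in libraries 3 and 4, and monocyte-like cells 228 and 160. Basophil-like cells had 494 CPM in library 1 and 376 in library 2. Their neutrophil markers summed to 1986 CPM against 171717 CPM in neutrophil-like cells, a gap that the gate partly sets. The source of the C5ar1 UMIs in basophil-like cells was not tested. The neutrophil-like level was 2.09-fold (1.72 to 2.58) that of basophil-like cells, so its interval reaches below the 2-fold lead, and the log2 ratio fell from 1.06 to 0.88 without library 3, which ended the call. Over macrophage-like cells it was 3.46-fold (3.34 to 3.59). A C5ar1 UMI was seen in 54.0% of thinned neutrophil-like cells, 25.0% of basophil-like, 20.6% of macrophage-like, 15.7% of monocyte-like and 0.164% of T cell-like cells. Thus C5ar1 was found across neutrophil-like, basophil-like, macrophage-like and monocyte-like cells, and C3ar1 was low in the first of these.

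**Figure D3:**
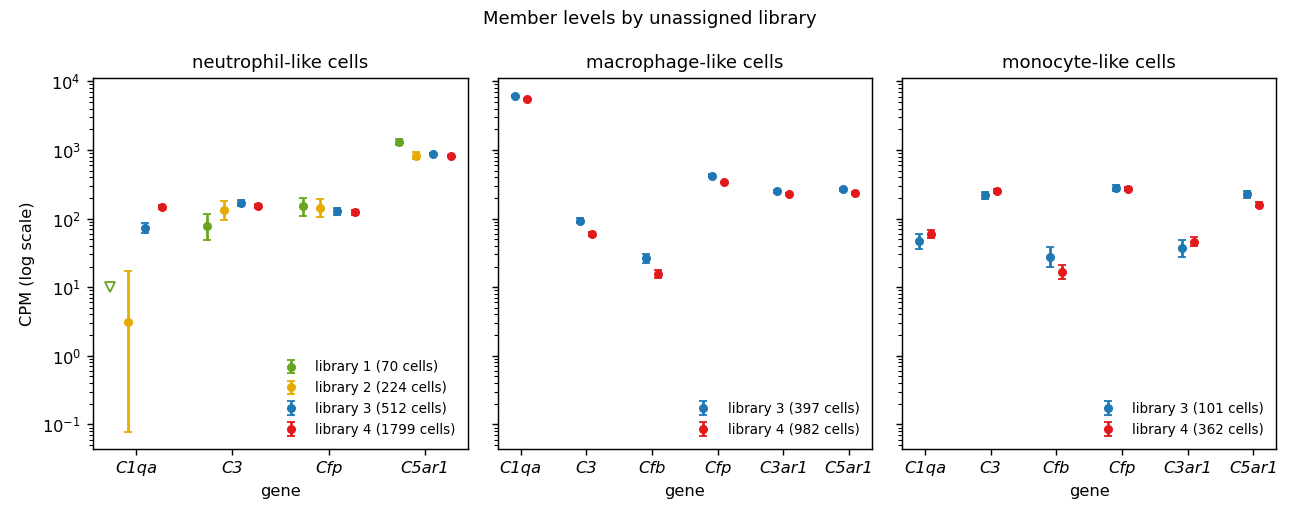
Level of selected complement genes (log axis, CPM) in neutrophil-like, macrophage-like and monocyte-like cells of each unassigned library with at least 50 such cells. Points are levels, bars exact 95% Poisson intervals, and the open triangle the level that 3 counts would give where 0 UMIs were seen. In neutrophil-like cells C1qa goes from 0 UMIs in library 1 to 146 CPM in library 4, while C3, Cfp and C5ar1 are present in all 4 libraries.

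Set against each other directly, macrophage-like cells were at least 2-fold above monocyte-like cells for 5 of the 9 genes (the C1q chains, C3ar1 and C2, the last from 29 UMIs against 0), and 36.7% of the 12429 genes tested met the same rule. Monocyte-like cells were at least 2-fold above macrophage-like cells for 1 gene, C3, against 6.73% of all genes. Neutrophil-like cells were at least 2-fold above macrophage-like cells for 2, C3 and C5ar1, against 11.0% of 12650 genes, and macrophage-like cells above neutrophil-like cells for the other 7, against 64.5%. These shares put the counts in proportion: macrophage-like cells exceeded neutrophil-like cells for most genes of the table.

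Cells between the monocyte and macrophage gates had pooled C1q, C3 and C3ar1 levels in between. The 2195 cells of either kind, gated or not, were placed by the number of macrophage markers seen minus the number of monocyte markers seen, from -4 or lower to 6 or higher. C1qa was 12.2 CPM (6.51 to 20.9) at the monocyte end, 446 CPM where the numbers were equal and 6424 CPM at the macrophage end, and C1qb was above C1qa at every step up to 3. C3ar1 went from 48.9 to 261 CPM and C3 from 284 to 66.1 CPM. Cfp, at 298 and 374 CPM at the ends, C5ar1, at 173 and 256 CPM, and Cfb, at 23.5 and 17.0 CPM, differed less between the ends. C3 showed the same direction in library 3 (284 to 88.6 CPM) and library 4 (288 to 54.5 CPM). The 337 cells with enough markers of both kinds to pass neither gate had 443 CPM of C1qa, 168 of C3 and 66.8 of C3ar1, all between the gated classes, and 20.6 CPM of Cfb, within counting error of both. Without thinning, a C1qa UMI was seen in 28.8% of these cells, 14.4% of monocyte-like and 95.4% of macrophage-like cells. The pooled C1qa level therefore does not show a middle level in each cell.

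**Figure D4:**
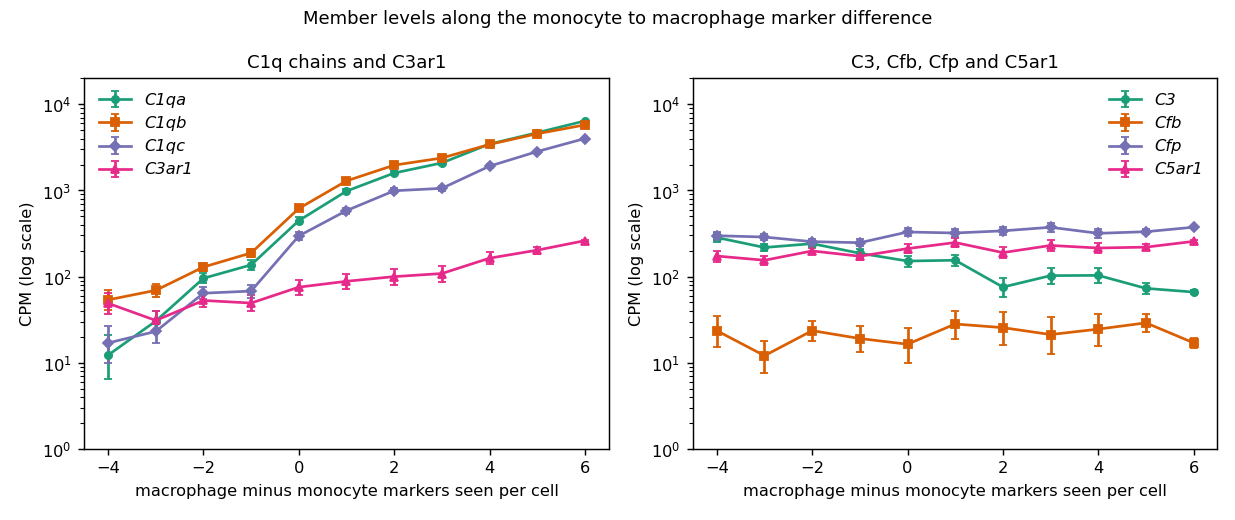
Level of complement genes (log axis, CPM, with exact 95% Poisson intervals) in cells ordered by the number of macrophage markers minus the number of monocyte markers seen (horizontal axis). C1qa goes from 12.2 to 6424 CPM and C3ar1 from 48.9 to 261 CPM, while C3 goes from 284 to 66.1 CPM and Cfp, C5ar1 and Cfb differ less between the ends.

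Of 42 other complement genes listed by role, 41 were in the table, 23 had at least 10 UMIs in their highest class and 14 of these were led by a class, against 34.2% of all genes. Macrophage-like cells led 6: C6, a part of the membrane attack complex, at 76.2 CPM (27.9-fold above the next class, 9.54 to 136), C4b, which is cut by the C1 complex, at 20.5 CPM, the protease gene C1ra at 6.65 CPM, the ficolin gene Fcna at 5.96 CPM, the collectin gene Colec12 at 2.86 CPM and the C3b receptor gene Vsig4 at 0.591 CPM from 12 UMIs. Epithelial-like cells led 4: Clu (248 CPM), the protease gene Cfi that cuts C3b (68.1 CPM, 18.3-fold above the next class), C4bp (11.3 CPM) and the C1 inhibitor gene Serping1 (9.39 CPM). Over all genes epithelial-like cells led 16.9%, so 4 of 23 was near that share, and macrophage-like cells led 1.77%. Cfi was 129 CPM in Wnt-active and 21.5 CPM in regenerative epithelial-like cells, and Wnt-active cells were higher in library 1 (106 against 7.0 CPM) and in library 2 (134 against 37.3 CPM). Its 6 UMIs in goblet cells came from 1 cell. B cell-like cells, which led 1.21% of all genes, led Cr2, the receptor of C3 fragments, at 395 CPM and the shielding protein gene Cd55 at 231 CPM. Monocyte-like cells led Fcnb (4.75 CPM) and migratory DC-like cells led Hc, which encodes C5, at 3.69 CPM from 10 UMIs. The other C5a receptor, C5ar2, was highest in basophil-like (45.7 CPM) and neutrophil-like cells (27.6 CPM), a pair that did not differ beyond counting error. C1ra and C1s1 were low in all 15 classes: C1ra reached 6.65 CPM, and C1s1 at most 4.15 CPM, from 1 UMI in basophil-like cells.

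**Figure D5:**
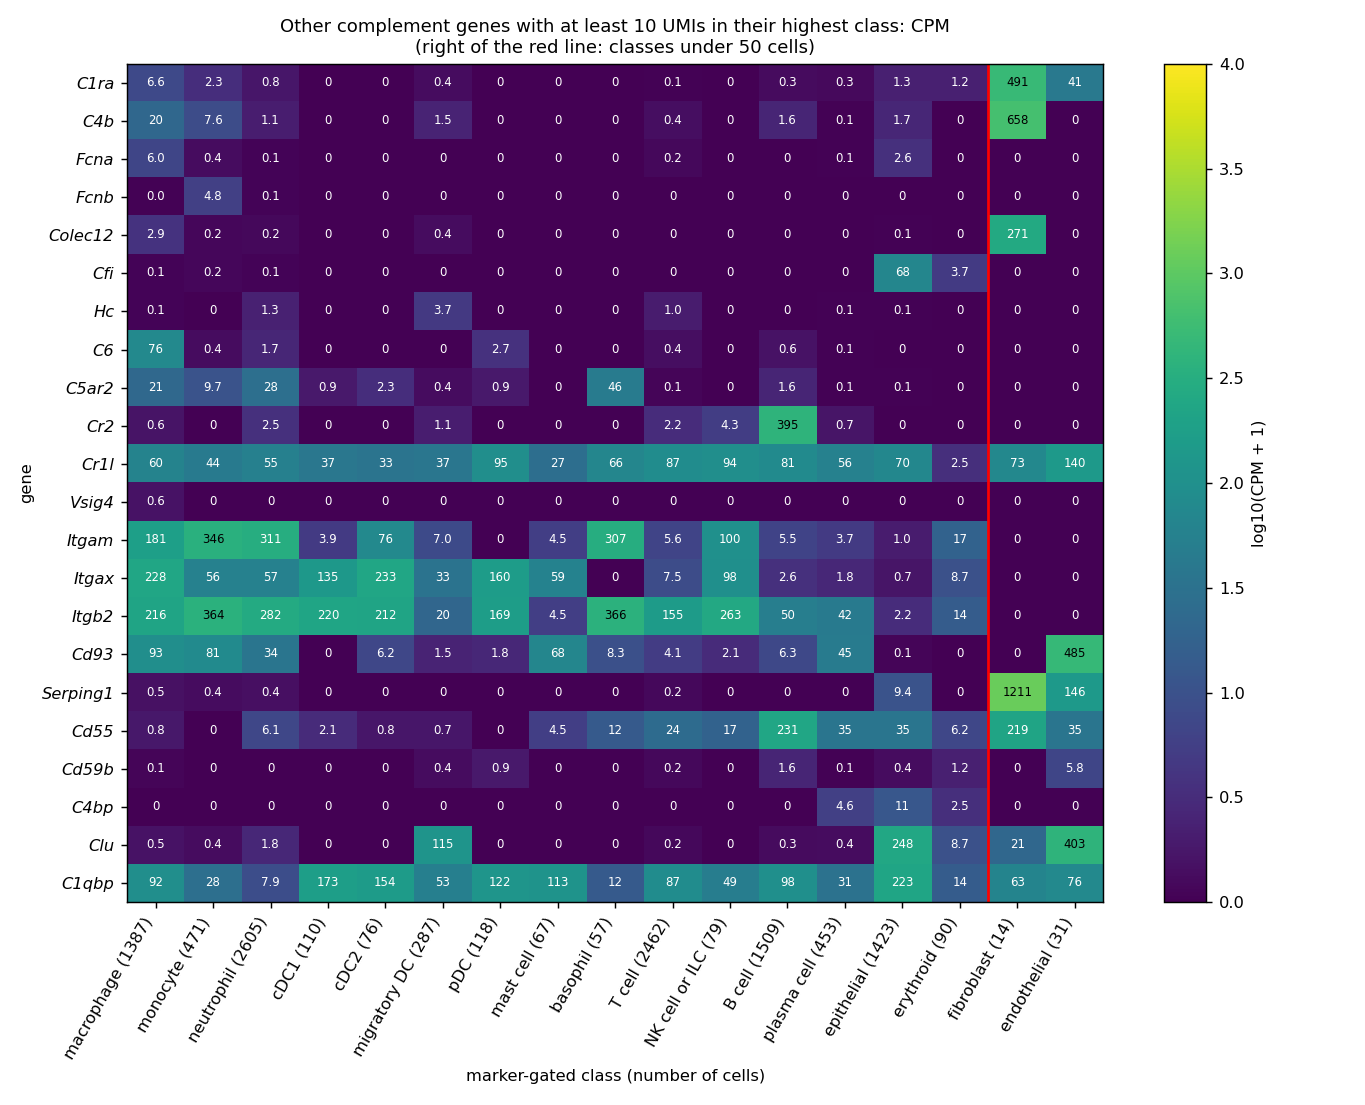
Level of other complement genes with at least 10 UMIs in their highest class (rows, 1 listed gene not shown) across classes (columns, number of cells in brackets), with colour as log10(CPM + 1) and the CPM printed. C6 and C4b stand highest in macrophage-like cells, Cfi, Clu and Serping1 in epithelial-like cells and Cr2 in B cell-like cells among classes of at least 50 cells, and several of these genes are higher in the 14 fibroblast-like cells right of the red line.

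The genes whose pattern was most like a member's were taken by Pearson's r of log2(CPM + 1) over the 15 classes, among 9984 genes with at least 500 UMIs, as a description over classes that share libraries. C1qa was nearest to Ccl12 (0.94), Apoe (0.93) and Ms4a7 (0.93), and Apoe and Ms4a7 are markers that chose the macrophage-like cells. C3 was nearest to Cdc42ep2 (0.96), the bacterial lipoprotein receptor gene Tlr2 (0.92) and Il1rn (0.90), and Cfb to Zfyve9 (0.92), Gab1 (0.91) and Dock1 (0.90). Cfp was nearest to Cd300a (0.96), I830077J02Rik (0.93) and Nfam1 (0.92). For the receptors these were Gdf3 (0.90), Hacd4 (0.88) and Cyp4f18 (0.83) for C3ar1, and Cebpb (0.97), Hcar2 (0.95) and the inflammasome gene Nlrp3 (0.93) for C5ar1.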

How the data were processed

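The authors deposited raw UMI counts per gene and barcode, made with Cell Ranger 3.0.2 against mm10, per the file headers and the submitters' processing notes. Which annotation release was used, and whether depth was evened out between libraries, is not stated there. Counts are the only unit used. Cells were kept with at least 500 UMIs, 200 genes and at most 20% mitochondrial UMIs. A cell entered a class when at least 3 markers and 50% of its list were seen, with a lead of 20 percentage points over every other list. Classes of at least 50 cells were compared. These limits were set after the data were opened, and the members and gene lists were chosen with earlier results of these data known. Per class, the UMIs of each gene were added up and expressed per 1000000 UMIs of that class (CPM). Intervals are exact 95% Poisson, binomial or conditional ones. The lead rule was tested on simulated counts.

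The genes named are all 9 members, genes of the fixed pathway list led by a class, with those not led named as values only, and the 3 genes nearest in pattern to C1qa, C3, Cfb, Cfp, C3ar1 and C5ar1. C5ar2, C1s1 and the pathway genes of fibroblast-like cells were named after their values were seen. The levels of 1 listed gene are not reported here. Gene positions are from GENCODE vM21, promoter windows from RefSeq. Scrublet, run per library in scanpy 1.11.5, marked 52 of 14198 cells (0.366%). So low a share was taken as a sign that the caller had not worked, which was not tested, and no doublets were removed. An alternative removed the 625 highest scores. Other alternatives used a stricter gate, a mitochondrial limit of 10%, barcodes of mixed markers, equal weight per cell, other leads, 10 CPM before the log, thinning to 1000 UMIs, Leiden clusters and each library left out. Python 3.11.15, numpy 2.4.6, scipy 1.17.1 and igraph 0.11.9 were used.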

Additional observations from a re-analysis of the deposited data

Results flagged for a closer look

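More than 3 UMIs of 3 members were seen in classes with too few cells to enter the comparisons, which is what singled these values out. The 14 fibroblast-like cells, 6 from library 1 and 8 from library 2, had 512 CPM of C3 (378 to 676, from 49 UMIs), 62.6 CPM of C2 (23.0 to 136, from 6 UMIs) and 41.8 CPM of Cfb (11.4 to 107, from 4 UMIs). In these cells 3 counts would give 31.3 CPM, a level that the intervals of C2 and Cfb include, and no background was measured. The 31 endothelial-like cells had 23.4 CPM of Cfb (6.37 to 59.9, from 4 UMIs), an interval that includes the 17.5 CPM of 3 counts, and all 4 UMIs came from the 11 cells of library 1. No control sample could be set beside these values, since the libraries are unassigned.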

How the results depend on the processing

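The highest class of C1qa, C1qb, C1qc, C3 and C5ar1 was the same under every alternative but 1: with classes of at least 5 cells let in, an alternative chosen after seeing the data, C3 was highest in fibroblast-like cells. The highest class of Cfb was monocyte-like or macrophage-like, and fibroblast-like with those small classes let in, as for C2. C3ar1 was highest in basophil-like cells once thinned. Cfp was highest in macrophage-like cells without library 3, without library 4 and with Leiden clusters, where no cDC2-like class was left to compare. The number of members led by a class stayed at 5 or lay between 4 and 6. Neutrophil-like cells led 0 members instead of 1, C5ar1, when mixed barcodes were kept and with a 4-fold lead, and between 0 and 1 as each library was left out. Epithelial-like cells led 0 instead of 1, C2, when classes of at least 5 cells were let in. Other complement genes led by a class numbered 14, and 22 with no minimum of UMIs, 8 with a 4-fold lead, 9 in thinned cells and 12 to 15 as each library was left out. Macrophage-like cells with all 3 C1q chains made up 81.5% at 1000 UMIs, 89.8% at 2000 and 91.9% with no thinning. Of 136 recomputed log2 ratios 42 moved beyond counting error, and no called one changed sign. That of C2 in epithelial-like over macrophage-like cells went from 2.01 to 0.72 with 10 CPM added. The cause of these changes was not tested, beyond fewer counts in thinned cells and classes that drop out or come in. No paired analysis was possible because the groups share only replicate number 1, and no barcode can be assigned to a group. Depth limits rare genes such as C2, which had 0 UMIs in monocyte-like cells.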

Other observations

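Fibroblast-like cells also carried genes of the early classical and lectin routes that were thin in the larger classes. They had 981 CPM of C1s1 (793 to 1201), 491 CPM of C1ra (361 to 653) and 658 CPM of C4b (505 to 842), against 4.15, 6.65 and 20.5 CPM in the highest class of at least 50 cells. The C1 inhibitor gene Serping1 stood at 1211 CPM (1001 to 1453), Colec12 at 271 CPM and Masp1 at 146 CPM. C1qa, C1qb and C1qc had 0 UMIs in the same cells. Of the 31 endothelial-like cells, Cd93 was at 485 CPM (387 to 602), Clu at 403 CPM (314 to 511) and Serping1 at 146 CPM. In the 7 smooth muscle or pericyte-like cells, all from library 2, Serping1 was at 1310 CPM from 25 UMIs. All of these levels rest on few cells of libraries 1 and 2 and carry counting error only.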
